A study of Mus musculus with 15 samples.

Results

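TGF-beta and activin signalling in inguinal white adipose tissue, the subcutaneous fat depot of the groin, was described here through 10 genes chosen by name: the ligands Tgfb1, Tgfb2, Tgfb3, Inhba and Inhbb, the receptors Tgfbr1, Tgfbr2 and Acvr1c, the secreted inhibitor Fst and the intracellular inhibitor Smad7. All 10 are among the 24015 genes counted in the deposited table, and 9 of them were among the 15288 genes with enough counts to be tested, since Inhba fell below the filter. The 15 RNA libraries came from C57BL/6 mice in 4 groups. Young_Ctrl (n = 4) and Young_CL (n = 4) were mice of 2 months given vehicle or CL. Old_Ctrl (n = 3) and Old_CL (n = 4) were mice of 12 months given vehicle or CL. All 4 groups, controls included, had spent 2 weeks at thermoneutrality before 5 days of intraperitoneal injections. The labels expand CL as cardiolipin, while a β-adrenergic agonist is commonly abbreviated with the same letters, so the agent is called CL throughout. Nothing in the labels says that each library is a separate animal, so p-values measure the spread between these samples, which may be technical.

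TGF-beta ligands are secreted as latent dimers, bind the type II receptor encoded by Tgfbr2 and through it engage the type I receptor encoded by Tgfbr1, which phosphorylates SMAD proteins that carry the signal to the nucleus. Activins are dimers of inhibin beta chains. Activin B, the dimer of the chain encoded by Inhbb, can act through the type I receptors ALK4 (Acvr1b) and ALK7 (Acvr1c), the latter being abundant in adipocytes, where it is known for restraining lipolysis and the response to catecholamines. In fat, TGF-beta signalling is known for holding back adipocyte differentiation and for promoting matrix deposition. Follistatin (Fst) binds and neutralises activins, and SMAD7 blocks type I receptors as a feedback inhibitor that TGF-beta itself induces.

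Inhbb and Tgfb2 were the 2 members whose response to CL differed between the ages by the test reported below, and their promoters are shown for that reason. The 250 bases before each RefSeq start are given 5′ to 3′ on the gene's strand in the GRCm38.p6 assembly, at chr1:119422249-119422498 (minus strand) for Inhbb and at chr1:186705990-186706239 (minus strand) for Tgfb2. Capitals mark each CAGAC or GTCTG, the SMAD box bound by SMAD proteins.
Inhbb: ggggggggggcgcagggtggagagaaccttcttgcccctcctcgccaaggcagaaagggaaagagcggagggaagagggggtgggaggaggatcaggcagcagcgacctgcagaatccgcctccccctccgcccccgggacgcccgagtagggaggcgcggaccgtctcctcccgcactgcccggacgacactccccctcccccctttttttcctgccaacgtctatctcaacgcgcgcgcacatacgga
Tgfb2: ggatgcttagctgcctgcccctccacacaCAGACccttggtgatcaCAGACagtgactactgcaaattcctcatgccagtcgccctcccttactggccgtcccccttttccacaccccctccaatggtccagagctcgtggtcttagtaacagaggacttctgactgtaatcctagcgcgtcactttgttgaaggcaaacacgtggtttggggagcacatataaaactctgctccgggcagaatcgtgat
The Tgfb2 window held 2 SMAD boxes, starting 221 and 204 bases before the start, and the Inhbb window held none. A SMAD box on either strand was present in 42.2% of the 32851 promoter windows of the same length. The Inhbb window was 68% G and C and the Tgfb2 window 53.6%, against a median of 52.4% over all windows. Promoters of 7 of the 10 members were matched in the RefSeq table. These matches describe letters in the windows, and binding was not measured.

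Total gene counts per library lay between 7066687 and 14796440 for Young_Ctrl, 6115542 and 30621448 for Young_CL, 6495373 and 51577001 for Old_Ctrl, and 15723586 and 40235461 for Old_CL. Levels are CPM, counts scaled to a common effective library size, so they compare a gene between libraries but not 2 genes with each other. All 10 adipocyte markers of a fixed list were detected in every group of this adipose tissue, with a summed level from 13685 CPM in the lowest Young_Ctrl library to 80682 CPM in the highest Old_CL library. In 5 libraries (Young_CL 1, 2 and 3, Old_Ctrl 3 and Old_CL 3) the mean log2 CPM of 12 skeletal muscle markers was 6.80 to 7.75, against 1.49 to 4.59 in the other 10. Old_CL 1, 2 and 4 resembled one another most (robust SD of their log2 ratios 0.0636 to 0.0933, against 0.116 to 0.747 in the 18 remaining pairs of same-group libraries) but differed by more than sampling noise and were kept as 3 samples.

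**Figure D1:**
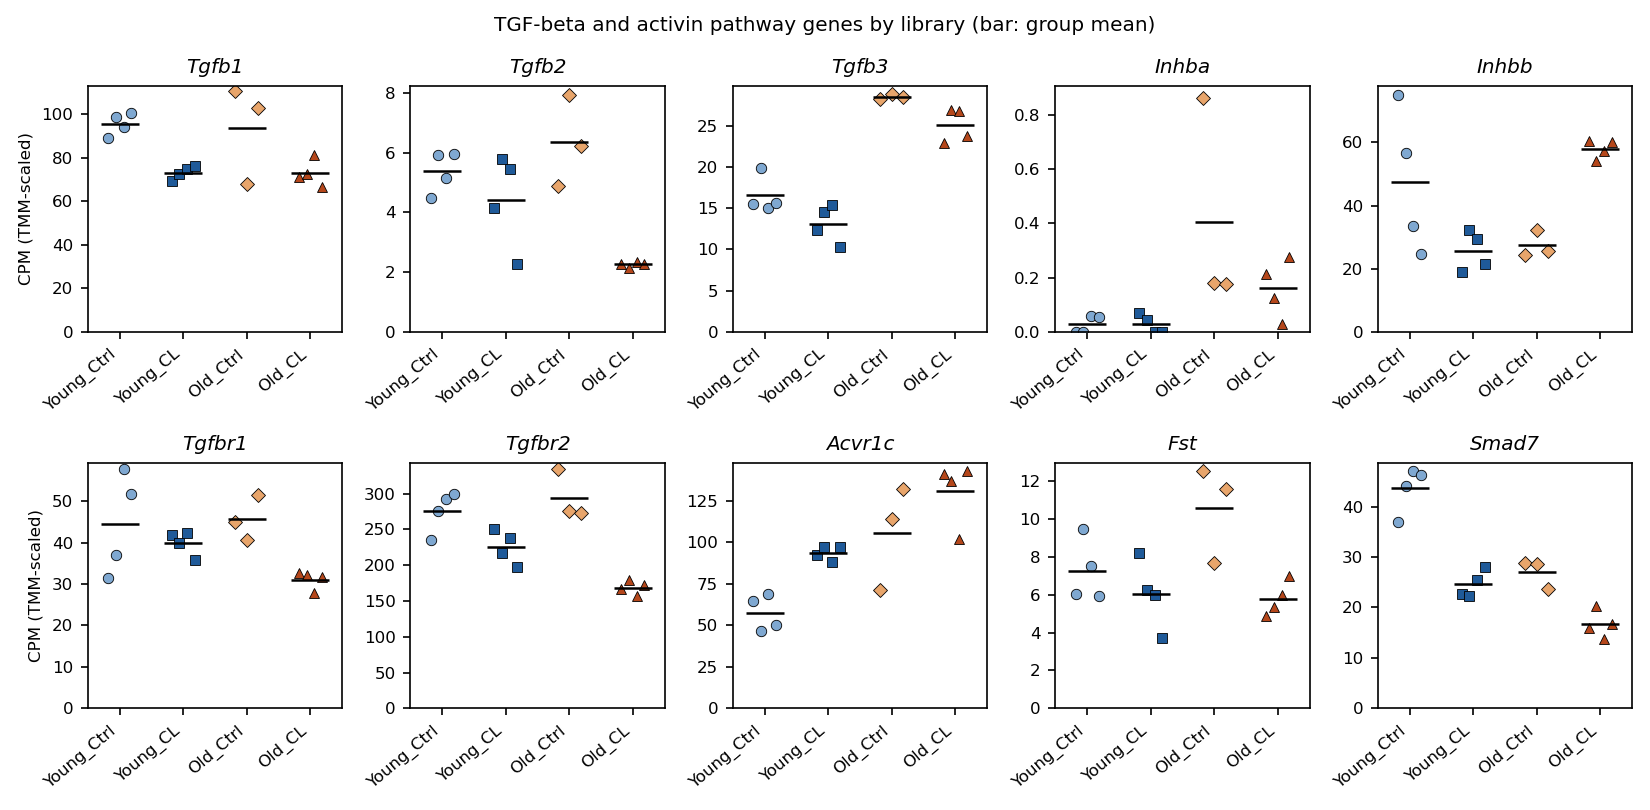
CPM (TMM-scaled, linear axis from 0) of each of the 10 genes in the 15 libraries, by group, with a bar at the group mean. Old_CL stood above Old_Ctrl for Inhbb and below it for Tgfb2, Tgfb3, Tgfbr1, Tgfbr2, Fst and Smad7 without overlap, while Inhba stayed under 1 CPM throughout.

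In young mice CL lowered 5 members (Tgfb1, Tgfb3, Tgfbr2, Inhbb and Smad7) and raised 1 (Acvr1c) of the 9 tested. Over all 15288 genes, 43.9% were called in this comparison, 21.7% higher and 22.1% lower. In aged mice CL lowered 6 members (Tgfb1, Tgfb2, Tgfbr1, Tgfbr2, Fst and Smad7) and raised 1 (Inhbb), against 45.2% of all genes called, 23.1% higher and 22.2% lower. The median log2 change of the 9 genes was -0.30 in young and -0.56 in aged mice, beside -0.07 and -0.01 over all genes. The libraries of the 2 groups did not overlap for 3 of the 9 in young mice (1 higher, 2 lower), where 34.1% of all genes had no overlap, and for 7 of the 9 in aged mice (1 higher, 6 lower), where 52.8% had none (27.9% higher, 25% lower). The corresponding shares in young mice were 18% and 16.1%.

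Between ages under vehicle, 2 members were higher (Tgfb3 and Acvr1c) and 1 was lower (Smad7) in the aged mice, against 27.2% of all genes called, 15.1% higher and 12.2% lower. The same 3 genes had no overlap between the groups, against 27.1% of all genes (14% higher, 13.1% lower). Under CL, 3 were higher (Tgfb3, Inhbb and Acvr1c) and 3 lower (Tgfb2, Tgfbr2 and Smad7) in the aged mice, against 40% of all genes, 20.5% higher and 19.4% lower. Here 3 genes were higher and 3 lower without overlap, with Tgfbr1 in the place of Tgfb2 among the lower, against 44.9% of all genes (23.5% higher, 21.4% lower). The response to CL itself differed between the ages for 2 of the 9, higher in aged mice for Inhbb and lower for Tgfb2, while 7.08% of all genes did so, 3.31% higher and 3.77% lower. These comparisons share groups with each other, so their values are given side by side.

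**Figure D2:**
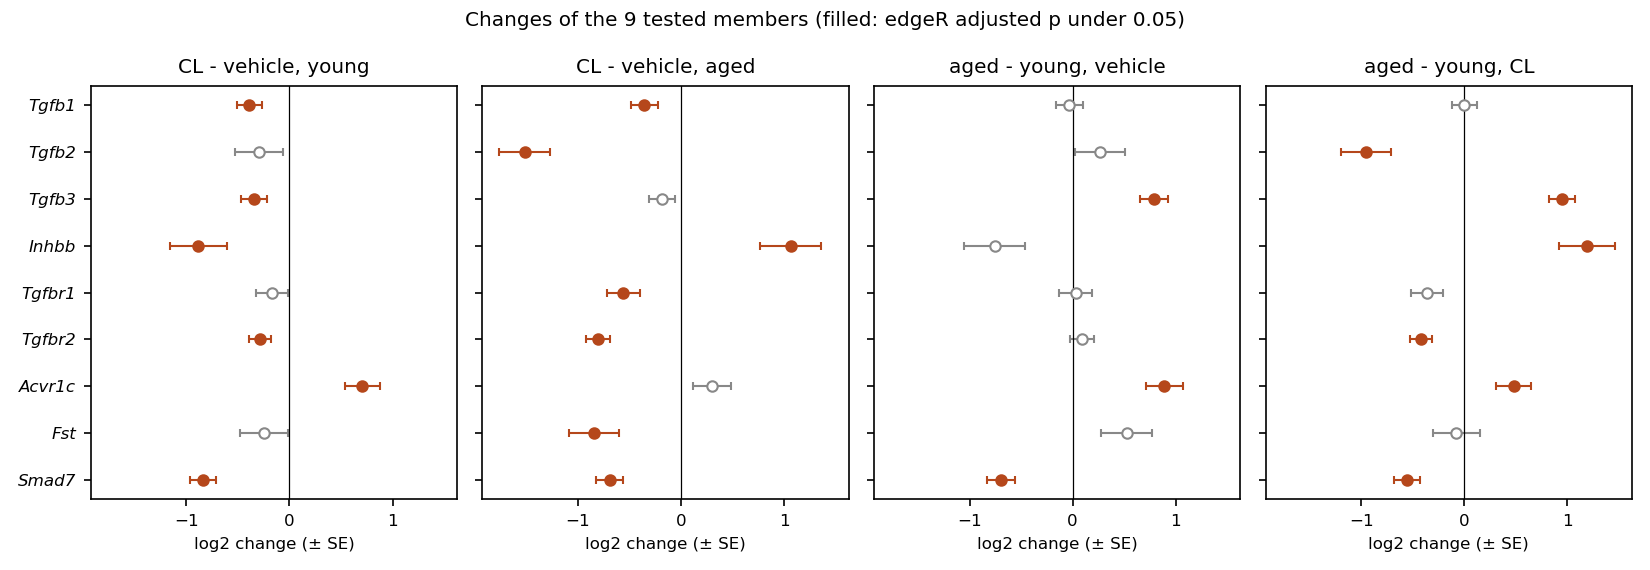
Log2 change ± SE (horizontal axis) of the 9 tested members in the 4 pairwise comparisons, filled where the edgeR adjusted p was under 0.05. Inhbb lay at -0.88 in young and 1.06 in aged mice, and Smad7 lay to the left of 0 in all 4 comparisons.

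Among the TGF-beta ligands, Tgfb1, the most widely expressed isoform and the one stored in latent complexes by immune and stromal cells, fell with CL at both ages. Its level was 88.8, 98.8, 94.2 and 100 CPM in Young_Ctrl and 69.4, 72.4, 74.5 and 75.9 CPM in Young_CL. The young groups did not overlap, and the log2 change was -0.39 ± 0.12 (SE, adjusted p = 0.017). The call was lost with the skeletal muscle markers as a covariate (-0.33, adjusted p = 0.065), without the 5 muscle-rich libraries (-0.34, adjusted p = 0.12) and with the B cell and lymph node markers as a covariate (-0.48, adjusted p = 0.11). The B cell and lymph node markers did not overlap between these groups, or between the ages under either treatment. In those comparisons that covariate and the group cannot be told apart. In bulk tissue, fewer cells that express a gene and less of its RNA per cell cannot be told apart. In aged mice Tgfb1 stood at 111, 68.0 and 103 CPM in Old_Ctrl and at 71.3, 72.7, 81.3 and 66.4 CPM in Old_CL. Old_Ctrl 3, a library rich in muscle transcripts, lay among the CL libraries. It was also the lowest of its group for the 10 macrophage markers, with a mean log2 CPM of 6.96 against 8.16 and 8.19 in Old_Ctrl 1 and 4, and Old_CL lay at 6.66 to 7.27. Of these markers 6 of 10 fell and none rose with CL in aged mice, and none was at 0. Their summed level was 2243 to 4417 CPM in Old_Ctrl and 1599 to 2395 in Old_CL. With CL in young mice 0 of 10 were called, although Tgfb1 fell there. With age 8 of 10 were higher under vehicle and 3 under CL, with 0 lower. Young_CL 4 had the lowest macrophage mean of its group (5.06) and the highest Tgfb1 (75.9 CPM). The part of macrophages in the Tgfb1 result was not tested. The log2 change was -0.36 ± 0.13 (adjusted p = 0.035). This call was lost without Old_Ctrl 1 (-0.23, adjusted p = 0.20), without Old_Ctrl 4 (-0.28, adjusted p = 0.14) and without Old_CL 1, 2 or 4 (adjusted p = 0.072, 0.065 and 0.091), and the change was -0.55 without Old_Ctrl 3. Tgfb1 did not differ with age beyond the spread under vehicle (-0.03 ± 0.13) or under CL (0.00 ± 0.12).

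Tgfb2, an isoform of mesenchymal and epithelial cells, fell 2.86-fold with CL in aged mice. It stood at 4.90, 7.94 and 6.23 CPM in Old_Ctrl and at 2.28, 2.13, 2.35 and 2.28 CPM in Old_CL, a log2 change of -1.52 ± 0.25 (adjusted p = 2.6e-04). All 4 Old_CL libraries lay below the lowest vehicle library, and the call held with each library left out. In young mice it was 4.47, 5.93, 5.14 and 5.95 CPM under vehicle and 4.14, 5.79, 5.47 and 2.26 CPM under CL (-0.30 ± 0.23, adjusted p = 0.32). Of the Young_CL libraries, only Young_CL 4 was near the level of Old_CL, and it was also the only one poor in muscle transcripts. The same library had the lowest level of the 10 progenitor and fibroblast markers, a mean log2 CPM of 6.13 against 7.30 to 7.46 in the other Young_CL libraries. Old_CL lay at 6.84 to 6.91 and Old_Ctrl at 7.60 to 7.83 on that list. Of these markers 7 of 10 fell and 1 rose with CL in aged mice, their summed level was 1815 to 1944 CPM in Old_CL, 3188 to 3660 in Old_Ctrl, 1073 to 2498 in Young_CL and 1952 to 2360 in Young_Ctrl, and none was at 0. Their part in the Tgfb2 result was not tested.

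The fall of Tgfb2 with CL was larger in aged than in young mice by -1.22 ± 0.34 on the log2 scale (adjusted p = 0.043). That difference depended on single libraries: the call was lost in 12 of the 15 fits with a library left out, at adjusted p up to 0.10. It held without Young_Ctrl 4, Young_CL 4 or Old_Ctrl 1. Without the 5 muscle-rich libraries, which leaves Young_CL 4 alone in its group, Tgfb2 fell in young mice by 1.27 (adjusted p = 0.012) and the difference between ages was -0.08 (adjusted p = 0.96). Under CL, Tgfb2 was lower in aged than in young mice (-0.95 ± 0.24, adjusted p = 0.0058), and that value was -0.05 without the same 5 libraries (adjusted p = 0.93).

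Tgfb3 rose with age under both treatments. It stood at 15.5, 19.9, 15.1 and 15.7 CPM in Young_Ctrl and at 28.2, 28.9 and 28.5 CPM in Old_Ctrl, a log2 change of 0.79 ± 0.13 (adjusted p = 0.0012). Under CL it was 12.4, 14.5, 15.4 and 10.3 CPM in young and 22.9, 26.9, 26.8 and 23.8 CPM in aged mice, a log2 change of 0.94 ± 0.12 (adjusted p = 5.2e-05). The 7 aged libraries all lay above the 8 young ones, and both calls held with each library left out. Under vehicle the call was lost with the B cell and lymph node markers as a covariate (0.66, adjusted p = 0.38). Their mean log2 CPM was 7.01 to 7.46 in Young_Ctrl and 5.57 to 6.53 in Old_Ctrl, so the covariate cannot be told apart from age there. Markers of vessel cells were higher with age too: of 8 smooth muscle and pericyte markers 4 under vehicle and 6 under CL, and of 8 endothelial markers 3 under each, with none lower and none at 0. The summed smooth muscle markers were 214 to 421 CPM in Young_Ctrl, 298 to 486 in Young_CL, 428 to 450 in Old_Ctrl and 672 to 711 in Old_CL, and the endothelial ones 417 to 722, 509 to 661, 631 to 757 and 801 to 922 CPM in the same order. Their part in the Tgfb3 result was not tested. CL lowered Tgfb3 in young mice by a small margin (-0.34 ± 0.13, adjusted p = 0.040). That call was lost without Young_Ctrl 2, Young_Ctrl 4, Young_CL 1 or Young_CL 4 (adjusted p = 0.14, 0.052, 0.10 and 0.11), and the change was -0.24 without Young_Ctrl 2 and without Young_CL 4. In aged mice the change with CL was -0.18 ± 0.13 (adjusted p = 0.26), although all Old_CL libraries lay below the Old_Ctrl ones.

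Both TGF-beta receptors fell with CL in aged mice. Tgfbr2, the type II receptor that binds the ligand, was 335, 276 and 273 CPM in Old_Ctrl and 166, 180, 157 and 172 CPM in Old_CL. The groups lay far apart, with a log2 change of -0.80 ± 0.12 (adjusted p = 9.9e-05) that held with each library left out. In young mice it was 236, 276, 292 and 300 CPM under vehicle and 251, 217, 239 and 198 CPM under CL. The young groups overlapped, and the log2 change of -0.29 ± 0.11 (adjusted p = 0.042) was lost in 8 of the 15 fits with a library left out: without Young_Ctrl 2, 3 or 4, Young_CL 2 or 4, or Old_CL 1, 2 or 4 (adjusted p 0.052 to 0.12). The difference between the 2 responses was -0.52 ± 0.16 (adjusted p = 0.061 by edgeR). It passed without Young_CL 4 (-0.57, adjusted p = 0.027), by DESeq2 (-0.53, adjusted p = 0.016) and by limma-voom (-0.55, adjusted p = 0.045). With the B cell and lymph node markers as a covariate it also passed (-0.56, adjusted p = 0.037). Tgfbr2 did not differ with age beyond the spread under vehicle (0.09 ± 0.12), and under CL it was lower in aged mice (-0.42 ± 0.11, adjusted p = 0.0064). That call was lost without the 5 muscle-rich libraries (-0.23, adjusted p = 0.49) and with the B cell and lymph node markers as a covariate (-0.24, adjusted p = 0.34).

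Tgfbr1, the signalling type I receptor, was 44.9, 40.7 and 51.4 CPM in Old_Ctrl and 32.7, 32.1, 27.8 and 31.6 CPM in Old_CL. The aged groups did not overlap, with a log2 change of -0.56 ± 0.16 (adjusted p = 0.011), lost without Old_Ctrl 4 (-0.46, adjusted p = 0.056), without the 5 muscle-rich libraries (-0.59, adjusted p = 0.069) and with the B cell and lymph node markers as a covariate (-0.54, adjusted p = 0.053). In young mice it varied more under vehicle (31.6, 36.9, 57.8 and 51.7 CPM) than under CL (41.7, 39.9, 42.2 and 35.7 CPM), and the change was -0.17 ± 0.15 (adjusted p = 0.38). Under CL the aged level was 0.36 ± 0.15 lower on the log2 scale (adjusted p = 0.068), a difference that passed without Young_Ctrl 1 (adjusted p = 0.024) or Young_Ctrl 3 (adjusted p = 0.038). It also passed by DESeq2 (-0.40, adjusted p = 0.043), with the 2 groups alone (-0.37, adjusted p = 0.0024) and with the skeletal muscle markers as a covariate (-0.41, adjusted p = 0.038). In the aged CL comparison, in which both receptors fell, 10 of 10 T cell markers, 7 of 10 progenitor and fibroblast markers and the 6 macrophage markers above fell as well. The summed T cell markers were 527 to 596 CPM in Old_Ctrl and 172 to 275 CPM in Old_CL, with none at 0. In young mice 10 of 10 T cell markers fell with CL too, with 2 progenitor markers higher, 2 lower and 0 macrophage markers called. With age under vehicle 8 macrophage and 5 progenitor markers were higher, and 8 T cell markers and 1 progenitor marker lower. Tgfbr1 changed there by 0.03 ± 0.16 and Tgfbr2 by 0.09 ± 0.12. The part of these cells in the receptor results was not tested.

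Of the activin chains, Inhba had at most 10 counts in any library. Its raw counts were 0, 0, 1 and 1 in Young_Ctrl, 2, 1, 0 and 0 in Young_CL, 6, 10 and 5 in Old_Ctrl and 3, 2, 1 and 5 in Old_CL. The 3 Old_Ctrl libraries held the highest CPM apart from Old_CL 1 and 4, which exceeded 2 of them, and no test was made at this depth.

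Inhbb moved with CL in opposite directions at the 2 ages. In young mice it was 75.1, 56.5, 33.6 and 24.6 CPM under vehicle and 19.1, 32.3, 29.3 and 21.5 CPM under CL, a log2 change of -0.88 ± 0.28 (adjusted p = 0.018). The vehicle libraries spread widely, and Young_Ctrl 4 lay within the CL range. In aged mice it was 24.5, 32.4 and 25.7 CPM under vehicle and 60.3, 54.1, 57.3 and 60.1 CPM under CL. All 4 Old_CL libraries lay above the vehicle libraries, a 2.09-fold rise (log2 change 1.06 ± 0.30, adjusted p = 0.0099). The difference between the 2 responses was 1.95 ± 0.41 (adjusted p = 0.014).

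The Inhbb difference between ages and its rise in aged mice both held with each library left out. The fall in young mice did not: it was -0.58 without Young_Ctrl 1 (adjusted p = 0.064), -0.78 without Young_Ctrl 2 (adjusted p = 0.051) and -0.76 without Young_CL 1 (adjusted p = 0.058). It was also lost without the 5 muscle-rich libraries (-1.12, adjusted p = 0.12) and with the B cell and lymph node markers as a covariate (-1.19, adjusted p = 0.085). With Old_CL 1, 2 and 4 summed into 1 library the difference was 1.95 at adjusted p = 0.073, and without the 5 muscle-rich libraries it was 2.33 at adjusted p = 0.097. Under vehicle the aged level was lower by 0.76 ± 0.30 on the log2 scale (adjusted p = 0.071). That difference passed without Young_Ctrl 4 (-0.98, adjusted p = 0.018), by DESeq2 (-0.79, adjusted p = 0.023) and with the skeletal muscle markers as a covariate (-0.83, adjusted p = 0.043). Under CL Inhbb was 2.28-fold higher in aged mice (1.19 ± 0.27, adjusted p = 0.0037). The latter call was lost without the 5 muscle-rich libraries (1.40, adjusted p = 0.085) and with the B cell and lymph node markers as a covariate (0.82, adjusted p = 0.26), and with that covariate the rise in aged mice was 0.81 (adjusted p = 0.15).

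Within Young_Ctrl, the order of Inhbb over the 4 libraries was that of the adipocyte markers, whose mean log2 CPM was 10.9, 10.1, 9.70 and 9.47 in libraries 1 to 4. Adipocyte markers rose with CL, 7 of 10 in young and 8 of 10 in aged mice, with summed levels of 13685 to 36715 CPM in Young_Ctrl, 45694 to 53847 in Young_CL, 27835 to 41123 in Old_Ctrl and 65511 to 80682 in Old_CL. Set against the mean of that list in the same library, the log2 level of Inhbb was -4.84 to -4.31 in Young_Ctrl, -6.74 to -5.91 in Young_CL, -6.30 to -5.45 in Old_Ctrl and -6.00 to -5.79 in Old_CL. On this scale Young_Ctrl stood above the other 3 groups, which overlapped. The part of adipocyte content in the Inhbb result was not tested.

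**Figure D3:**
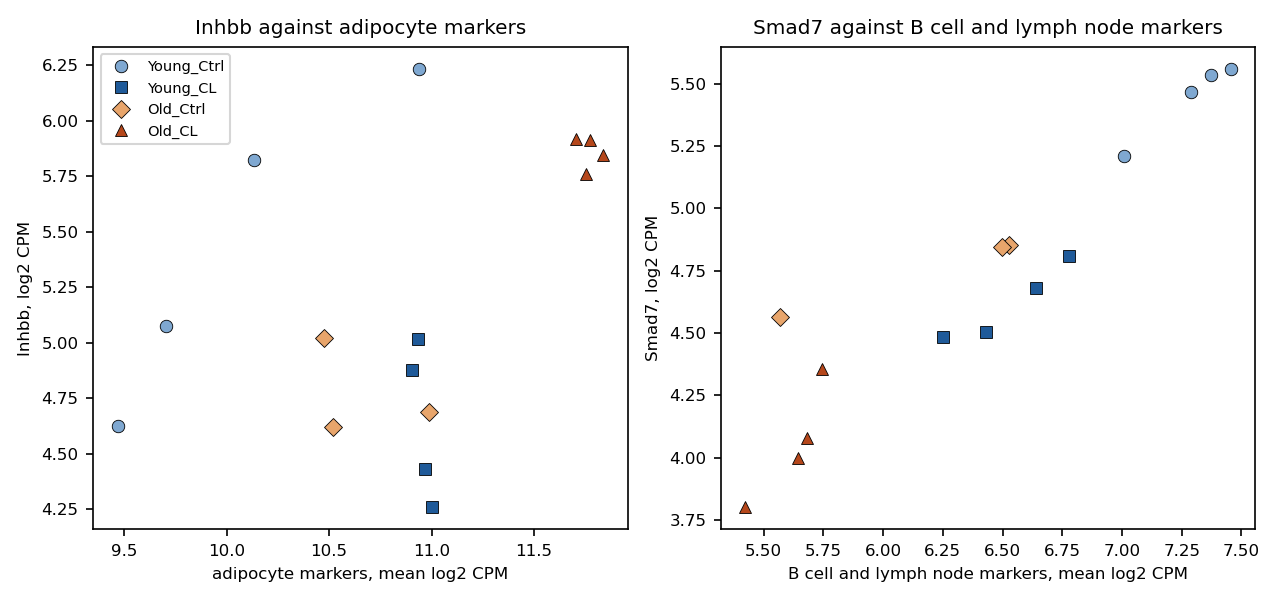
Log2 CPM of Inhbb against the mean log2 CPM of 10 adipocyte markers (left) and of Smad7 against that of 10 B cell and lymph node markers (right), 1 point per library. On the left the 4 Young_Ctrl points lie toward the upper left, at -4.84 to -4.31 relative to the marker mean, and on the right the points lie along 1 band from Old_CL at the lower left to Young_Ctrl at the upper right.

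Acvr1c, encoding the activin receptor ALK7, rose with CL in young mice and with age. It was 64.6, 46.3, 68.6 and 50.0 CPM in Young_Ctrl and 92.0, 96.8, 88.3 and 97.3 CPM in Young_CL. The young groups did not overlap (0.71 ± 0.17, adjusted p = 0.0038). This call was lost without the 5 muscle-rich libraries (0.76, adjusted p = 0.074) and with the B cell and lymph node markers as a covariate (0.49, adjusted p = 0.24). In aged mice it was 71.4, 114 and 132 CPM under vehicle and 141, 137, 102 and 143 CPM under CL. Old_CL 3, the muscle-rich library of its group, was the lowest there, the aged groups overlapped, and the change was 0.30 ± 0.18 (adjusted p = 0.19). Aged exceeded young libraries by 0.89 ± 0.18 under vehicle (adjusted p = 0.0036), a call that held with each library left out and was lost with that covariate (0.56, adjusted p = 0.62). Under CL the difference was 0.48 ± 0.17 (adjusted p = 0.034), lost without Young_CL 1, 2 or 3 or Old_CL 1, 2 or 4 (adjusted p 0.057 to 0.086). Set against the adipocyte markers of the same library, the log2 level of Acvr1c was -4.92 to -3.60 in Young_Ctrl, -4.48 to -4.33 in Young_CL, -4.36 to -3.64 in Old_Ctrl and -5.17 to -4.56 in Old_CL. On that scale Old_CL lay below Young_CL and Old_Ctrl, and the other pairs of groups overlapped.

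Fst, the activin antagonist, fell 1.80-fold with CL in aged mice. It was 12.5, 7.65 and 11.6 CPM in Old_Ctrl and 4.85, 5.33, 5.96 and 7.0 CPM in Old_CL, without overlap (-0.85 ± 0.24, adjusted p = 0.010), and the call held with each library left out. With Old_CL 1, 2 and 4 summed it was -0.82 at adjusted p = 0.052. In young mice the groups overlapped, at 6.05, 9.45, 7.53 and 5.95 CPM under vehicle and 8.21, 6.23, 5.96 and 3.71 CPM under CL (-0.25 ± 0.23, adjusted p = 0.41). The difference between the responses was -0.60 ± 0.34 (adjusted p = 0.27), so Fst was not shown to respond differently at the 2 ages.

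Smad7, the feedback inhibitor, was the member that fell in every pairwise comparison. It was 36.9, 44.1, 47.1 and 46.2 CPM in Young_Ctrl, 22.6, 22.3, 25.5 and 27.9 CPM in Young_CL, 28.8, 28.7 and 23.6 CPM in Old_Ctrl and 15.9, 20.4, 13.8 and 16.8 CPM in Old_CL. Young_Ctrl lay above all other groups and Old_CL below them, while Young_CL and Old_Ctrl overlapped. CL lowered it 1.78-fold in young (-0.83 ± 0.12, adjusted p = 8.8e-05) and 1.62-fold in aged mice (-0.69 ± 0.13, adjusted p = 8.0e-04). Aged libraries were lower by 0.70 ± 0.13 on the log2 scale under vehicle (adjusted p = 0.0026) and by 0.56 ± 0.13 under CL (adjusted p = 0.0029). All 4 calls held with each library left out, and the response to CL did not differ between ages beyond its error (0.14 ± 0.18, adjusted p = 0.65).

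Markers of B cells and lymph node, which can be taken along with this depot, moved with Smad7, and so did T cell markers. Of 10 B cell and lymph node markers, 10 fell with CL in young and 7 in aged mice, and 9 were lower with age under either treatment. Their summed level was 1498 to 2047 CPM in Young_Ctrl, 866 to 1256 in Young_CL, 551 to 1061 in Old_Ctrl and 504 to 625 in Old_CL, with no marker at 0. Of 10 T cell markers, all 10 fell with CL at either age, and 8 were lower with age under vehicle and 10 under CL. Their summed level was 677 to 1251 CPM in Young_Ctrl, 528 to 602 in Young_CL, 527 to 596 in Old_Ctrl and 172 to 275 in Old_CL, also with none at 0, and their part in the Smad7 result was not tested. With the first of these lists as a covariate (its mean log2 level), Smad7 still fell with CL in young (-0.46, adjusted p = 0.039) and aged mice (-0.41, adjusted p = 0.017), while the difference with age was -0.16 under vehicle (adjusted p = 0.83) and -0.11 under CL (adjusted p = 0.64). That covariate did not overlap between the groups compared except in aged CL against vehicle, so in the other comparisons it and the group cannot be told apart. With it, 1, 4, 0 and 1 of the 9 members were called for CL in young mice, CL in aged mice, age under vehicle and age under CL.

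Divided by the length of each gene's merged exons in the GENCODE M21 annotation (CPM per kilobase), the members could be ranked within a group. The annotation used for counting is not given, so the lengths counted may differ from these and close ranks may change. In Young_Ctrl, Tgfbr2 stood highest (33.7 ± 3.48, SD, n = 4), followed by Tgfb1 (18.9 ± 1.03), Inhbb (11.2 ± 5.36), Smad7 (9.64 ± 1.02), Tgfbr1 (6.81 ± 1.88), Acvr1c (6.17 ± 1.17), Tgfb3 (4.89 ± 0.671), Fst (1.58 ± 0.357) and Tgfb2 (0.928 ± 0.123). From Inhbb down to Tgfb3 the mean ± SD ranges of each pair of neighbours overlapped. In Old_CL the order was Tgfbr2 (20.6 ± 1.15), Tgfb1 (14.5 ± 1.23), Acvr1c (14.1 ± 2.09), Inhbb (13.6 ± 0.679), Tgfb3 (7.42 ± 0.613), Tgfbr1 (4.75 ± 0.340), Smad7 (3.698 ± 0.603), Fst (1.26 ± 0.203) and Tgfb2 (0.390 ± 0.0160). There the mean ± SD ranges of Tgfb1, Acvr1c and Inhbb overlapped, and those of Tgfbr1 and Smad7 did not. Inhba was lowest in every group, at most 0.0637 ± 0.0620 in Old_Ctrl. In that annotation 1.81% to 12.4% of the exon bases of Acvr1c, Fst, Tgfb2 and Tgfb3 overlap genes on the opposite strand, and whether counting used strand is not given, so reads of the 2 strands may be mixed in these 4 genes.

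The wider family was covered by 7 lists, which share Pmepa1, Skil, Ltbp2 and Thbs1. The BMP branch list included Bmp1, which encodes a protease and not a BMP ligand. Besides the members, 3 receptors, ligands and antagonists of the family responded to CL differently at the 2 ages: Acvr1b, Fstl3 and Bmp3. They were 1 of 9 other receptors, 1 of 12 antagonists and 1 of 13 in the BMP branch, with 0 of 6 other ligands. Of all genes 7.08% were called for this difference, so these counts were not set apart from that share. Acvr1b, encoding the activin receptor ALK4, fell with CL in young mice from 37.1, 33.8, 36.9 and 36.5 CPM to 21.7, 22.7, 26.7 and 20.8 CPM, without overlap (-0.66 ± 0.09, adjusted p = 4.5e-05). In aged mice it was 31.1, 32.2 and 29.7 CPM under vehicle and 35.9, 34.0, 28.9 and 34.5 CPM under CL (0.10 ± 0.10, adjusted p = 0.41). The difference between responses was 0.76 ± 0.13 (adjusted p = 0.0054), and with Old_CL 1, 2 and 4 summed it was 0.70 at adjusted p = 0.054.

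Fstl3, a follistatin-like binding protein of activins, stood at 4.21, 3.09, 2.86 and 2.45 CPM in Young_Ctrl, 2.42, 1.67, 3.48 and 1.94 CPM in Young_CL, 6.63, 4.61 and 5.66 CPM in Old_Ctrl and 11.3, 13.2, 12.3 and 10.8 CPM in Old_CL. It rose with CL in aged mice (1.10 ± 0.21, adjusted p = 7.5e-04), and its change in young mice was -0.44 ± 0.22 (adjusted p = 0.12). The difference was 1.55 ± 0.31 (adjusted p = 0.010), at adjusted p = 0.060 with Old_CL 1, 2 and 4 summed and 0.077 without the muscle-rich libraries. Bmp3, a ligand of the BMP branch known for opposing other BMPs, stood at 29.2, 15, 15.4 and 13.1 CPM in Young_Ctrl, 12.0, 14.4, 16.1 and 10.9 CPM in Young_CL, 28.1, 24.5 and 19.5 CPM in Old_Ctrl and 68.3, 76.1, 103 and 64.8 CPM in Old_CL. All Old_CL libraries lay above every other library. Bmp3 rose with CL in aged mice (1.72 ± 0.25, adjusted p = 1.1e-04), with a difference between ages of 2.15 ± 0.34 (adjusted p = 0.0034) that held under all 26 alternatives. None of these 3 differences was lost with a single library left out. Set against the adipocyte markers of the same library, the log2 level of Fstl3 was -8.83 to -8.12 in Young_Ctrl, -10.1 to -9.07 in Young_CL, -8.46 to -7.77 in Old_Ctrl and -8.33 to -8.03 in Old_CL. That of Bmp3 was -6.22 to -5.74, -7.51 to -6.89, -6.70 to -5.70 and -5.75 to -5.16 in the same order. On this scale Young_CL lay lowest for both genes, and the part of adipocyte content was not tested.

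Of the 18 common targets of TGF-beta, 4 had a response to CL that differed between the ages, higher in aged mice for Acta2 (1.60 ± 0.29, adjusted p = 0.0063), Cyr61 (1.74 ± 0.43, adjusted p = 0.029) and Tagln (0.67 ± 0.17, adjusted p = 0.029), which encode contractile or matricellular proteins, and lower for the collagen gene Col1a2 (-1.70 ± 0.46, adjusted p = 0.039). Of all genes 7.08% were called for this difference, 3.31% higher and 3.77% lower. Acta2 kept its call with each library left out. Cyr61 lost it without Young_CL 1, 2 or 3, Old_Ctrl 1 or 4 or Old_CL 2 (adjusted p up to 0.067), and Tagln without Young_Ctrl 2 or 3, Young_CL 1, Old_Ctrl 1 or 4 or Old_CL 2 (adjusted p up to 0.082). Col1a2 lost it without any library other than Young_Ctrl 2, Young_CL 4, Old_Ctrl 3 or Old_CL 3 (adjusted p up to 0.10). Without the 5 muscle-rich libraries none of the 4 was called (adjusted p 0.14 to 0.35). The count of 3 higher and 1 lower became 3 and 6 without Old_Ctrl 3 and 3 and 4 without Young_CL 4. It had 0 lower without Young_Ctrl 3 or 4, Young_CL 1, 2 or 3, Old_Ctrl 1 or 4, or Old_CL 1, 2 or 4, with 1 to 3 higher. For this difference edgeR called 0 of 16 SMAD proteins and regulators (1 at an unadjusted p under 0.05, 0 by DESeq2 and 0 by limma-voom), 0 of 12 latency genes (7 unadjusted, 3 by DESeq2, 1 by limma-voom) and 0 of 6 other ligands (3 unadjusted, 1 by DESeq2, 0 by limma-voom). The latency count was 1 higher and 2 lower without Young_CL 4, 2 and 0 without Young_Ctrl 4, 1 and 0 without Young_CL 3 and 0 and 1 without Young_Ctrl 1 or 2. The other ligands gave 2 lower without Young_CL 4 or Old_Ctrl 3, and 1 lower without Old_Ctrl 4 or Old_CL 3.

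**Figure D4:**
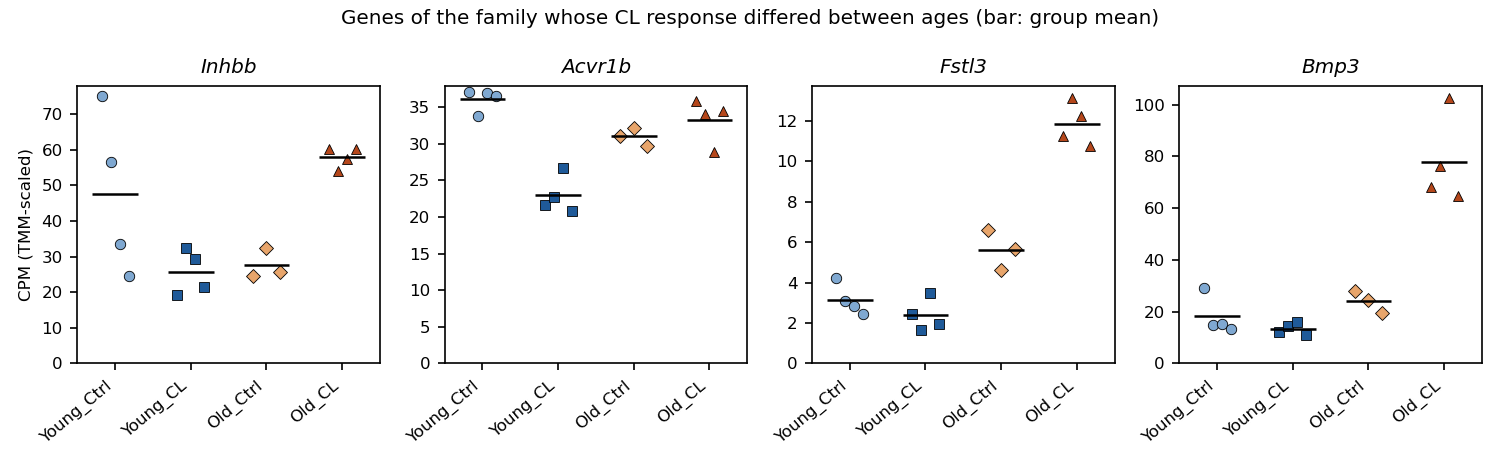
CPM (TMM-scaled, linear axis from 0) of Inhbb, Acvr1b, Fstl3 and Bmp3 in the 15 libraries, by group, with a bar at the group mean. Old_CL is the highest group for Fstl3 and Bmp3, and Young_CL is the lowest for Acvr1b.

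In the 7 lists, CL in young mice gave 2 higher and 4 lower of 12 for latency and activation of TGF-beta, 1 and 5 of 18 common targets, 3 and 3 of 16 SMAD proteins and regulators, 0 and 3 of 13 for the BMP branch, 0 and 2 of 12 antagonists, 1 and 2 of 9 other receptors, and 0 and 0 of 6 other ligands by edgeR. Of these 6, 3 had an unadjusted p under 0.05, and DESeq2 called 2 and limma-voom 1. The share called by edgeR was 50% for latency, 37.5% for SMAD regulators and 33.3% for targets and for other receptors. It was 23.1% for the BMP branch, 16.7% for antagonists and 0% for other ligands. Of all genes 43.9% were called, 21.7% higher and 22.1% lower. The list medians lay between -0.53 (other ligands) and 0.02 (other receptors), beside -0.07 over all genes. Furin, the protease that cleaves TGF-beta precursors, rose by 0.77 ± 0.09 (adjusted p = 1.2e-05), and Ltbp3, a latent TGF-beta binding protein, by 0.91 ± 0.18 (adjusted p = 7.9e-04). Id3, a target of BMP signalling, fell by 0.87 ± 0.16 (adjusted p = 5.7e-04), and Chrdl1, a BMP antagonist, by 0.90 ± 0.20 (adjusted p = 0.0020). The smooth muscle gene Tagln fell by 0.56 ± 0.12 (adjusted p = 0.0015). The target count was 2 higher and 2 lower without Young_Ctrl 2, and 1 and 3 without Young_Ctrl 3 or Young_CL 1. The latency count was 2 and 2 without Young_Ctrl 2 or Young_CL 1, and the SMAD count was 3 and 5 without Young_Ctrl 1. The other receptors gave 0 or 1 higher and 1 or 2 lower without Young_Ctrl 1, 2 or 4 or Young_CL 1, 2 or 4, and the other ligands gave up to 1 higher and 1 lower without Young_Ctrl 1, Young_CL 4 or Old_Ctrl 3 or 4.

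CL in aged mice gave 3 higher and 10 lower of the 18 targets of TGF-beta (72.2% called, list median -0.79), with fibrillar collagen and matrix genes among the lower ones. Of all genes 45.2% were called, 23.1% higher and 22.2% lower, with a median log2 change of -0.01. Col1a2, a fibrillar collagen chain, fell by 1.94 ± 0.34 on the log2 scale (adjusted p = 4.4e-04), Tgfbi, a matrix protein, by 1.03 ± 0.17 (adjusted p = 2.4e-04) and Ctgf, a matricellular growth factor, by 0.95 ± 0.18 (adjusted p = 7.3e-04). Col1a1 fell by 1.76 ± 0.44 (adjusted p = 0.0052), or by 1.15 without Old_Ctrl 1. Acta2, which also marks smooth muscle, rose by 1.04 ± 0.21 (adjusted p = 0.0012). Of 8 smooth muscle and pericyte markers, which include Acta2 and Tagln, 5 rose and none fell, with summed levels of 428 to 450 CPM in Old_Ctrl and 672 to 711 CPM in Old_CL. The target count was 1 higher and 7 lower without Old_Ctrl 1. It was 1 higher with 9 or 10 lower without Young_Ctrl 3, Young_CL 3, Old_Ctrl 3, or Old_CL 1, 2 or 4. The part of fewer progenitor and more smooth muscle transcripts in these counts was not tested.

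Elsewhere in the family CL in aged mice gave 4 higher and 3 lower of 12 for latency and activation, 2 and 4 of 12 antagonists, 1 and 4 of 13 for the BMP branch, 4 and 2 of 16 SMAD proteins and regulators, 0 and 3 of 6 other ligands and 1 and 0 of 9 other receptors. The share called was 58.3%, 50%, 38.5%, 37.5%, 50% and 11.1% in that order, beside 45.2% of all genes. The 4 lower of the BMP branch included Bmp1 (-0.76 ± 0.21, adjusted p = 0.0089), lost without Old_Ctrl 1 (-0.60, adjusted p = 0.052). Ltbp3 rose by 1.56 ± 0.20 (adjusted p = 3.9e-05) while Ltbp1, of the same protein family, fell by 1.14 ± 0.28 (adjusted p = 0.0042). Gdf10, a ligand of stromal cells, fell by 1.80 ± 0.30 (adjusted p = 3.3e-04), Dcn, a proteoglycan that binds TGF-beta and is also a progenitor marker here, by 1.32 ± 0.27 (adjusted p = 0.0013) and Id2 by 1.09 ± 0.14 (adjusted p = 4.3e-05). Without Old_Ctrl 1 the counts were 2 and 2 for latency, 2 and 2 for SMAD regulators, 1 and 5 for antagonists, 2 and 3 for the BMP branch, 0 and 1 for other ligands and 0 for other receptors. The SMAD count was also 2 and 2 without Young_CL 3, Old_Ctrl 3, or Old_CL 1, 2 or 4, and the other ligand count 0 and 1 without Old_CL 1 or 4. The latency count was 2 and 3 without Old_Ctrl 3 or Old_CL 2, and the antagonist count had 1 higher without any of Young_Ctrl 2, Young_CL 1 or 3, Old_Ctrl 4, or Old_CL 1, 2 or 3. The single other receptor was Bmpr1a (0.28 ± 0.11, adjusted p = 0.048), lost without any of 9 libraries (Young_Ctrl 3 or 4, Young_CL 2 or 3, Old_Ctrl 1 or 3, Old_CL 1, 2 or 4).

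With age under vehicle, where 15.1% of all genes were called higher and 12.2% lower, the lists gave 10 higher and 1 lower of 18 targets, 7 and 1 of 12 antagonists, 6 and 0 of 9 other receptors, 5 and 0 of 12 for latency and activation, 3 and 1 of 6 other ligands, 3 and 3 of 16 SMAD proteins and regulators and 2 and 0 of 13 for the BMP branch. The list medians were 0.81 for targets, 0.92 for antagonists and 0.40 for other receptors, beside 0.03 over all genes. Thbs1, an activator of latent TGF-beta, rose by 1.29 ± 0.14 (adjusted p = 6.4e-05) and Ctgf by 1.75 ± 0.19 (adjusted p = 6.4e-05). Bgn, a proteoglycan, rose by 1.35 ± 0.18 (adjusted p = 3.0e-04) and Eng, an endothelial co-receptor, by 0.88 ± 0.17 (adjusted p = 0.0028). Gdf3 rose by 3.25 ± 0.59 (adjusted p = 0.0020), from 0.424 ± 0.260 CPM (SD, n = 4) to 4.53 ± 3.12 CPM (n = 3). Macrophage markers rose in the same comparison, 8 of 10 with none lower and none at 0, with summed levels of 1573 to 1955 CPM in Young_Ctrl and 2243 to 4417 CPM in Old_Ctrl. Progenitor and fibroblast markers were higher in 5 of 10 and lower in 1, at 1952 to 2360 CPM in Young_Ctrl and 3188 to 3660 CPM in Old_Ctrl. Smooth muscle and pericyte markers, which include the targets Acta2 and Tagln, were higher in 4 of 8 with none lower, at 214 to 421 and 428 to 450 CPM. The part of these cells was not tested.

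These age counts moved with single libraries. The target count was 5 higher and 0 lower without Young_Ctrl 3 or Old_Ctrl 4, and 6 and 0 without Young_Ctrl 4 or Old_Ctrl 1. It was 10 and 0 without Old_Ctrl 3. The other receptors gave 3 higher without Young_Ctrl 4, Old_Ctrl 3 or Old_Ctrl 4, with 1 lower without Old_Ctrl 3, and had 1 lower without Young_CL 3 or Old_Ctrl 1. Antagonists gave 4 and 0 and latency 2 and 0 without Old_Ctrl 4, and latency had 1 lower without Old_Ctrl 1. SMAD proteins and regulators gave 1 and 2 without Young_Ctrl 3, Young_Ctrl 4 or Old_Ctrl 4. The lower call among other ligands was Gdf11, lost without Young_Ctrl 2, 3 or 4 or Old_Ctrl 4. The BMP branch ranged from 1 to 4 higher over the libraries left out. Thbs1, Ctgf, Bgn, Eng and Gdf3 held with each library left out. With the B cell and lymph node markers as a covariate, which did not overlap between these groups, all 5 lost the call (adjusted p = 0.055, 0.10, 0.29, 0.63 and 0.67), with Gdf3 at 1.51 and Eng at 0.46.

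Under CL the aged libraries were higher for 6 and lower for 1 of 18 targets, 6 and 1 of 12 antagonists, 6 and 1 of 13 for the BMP branch, 5 and 0 of 12 for latency and activation, 5 and 0 of 9 other receptors, 5 and 1 of 16 SMAD proteins and regulators and 1 and 1 of 6 other ligands. The share called was 38.9%, 58.3%, 53.8%, 41.7%, 55.6%, 37.5% and 33.3% in that order. Of all genes 40% were called, 20.5% higher and 19.4% lower. Acta2 was higher by 2.78 ± 0.21 (adjusted p = 3.4e-07), Thbs1 by 1.82 ± 0.13 (adjusted p = 2.7e-07), Bmp3 by 2.57 ± 0.23 (adjusted p = 2.6e-06), Fstl3 by 2.39 ± 0.21 (adjusted p = 1.5e-06) and Acvr1b by 0.54 ± 0.09 (adjusted p = 3.5e-04). Itgb5, a subunit of an integrin that activates latent TGF-beta, was higher by 1.30 ± 0.14 (adjusted p = 9.4e-06). Smooth muscle and pericyte markers were higher in 6 of 8 and none was lower, with summed levels of 298 to 486 CPM in Young_CL and 672 to 711 CPM in Old_CL, and their part was not tested. Without Young_CL 4 more genes were lower, 3 of the targets, 2 each of the antagonists, the BMP branch, the SMAD regulators and the latency list. The SMAD count was 3 higher without Young_CL 3, or Old_CL 1, 2 or 4, with 2 lower without Old_CL 1. Without Old_Ctrl 3, 2 targets, 2 other ligands and 1 latency gene were lower, and 1 latency gene was lower without Old_Ctrl 1 and 2 other ligands without Old_CL 3.

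**Figure D5:**
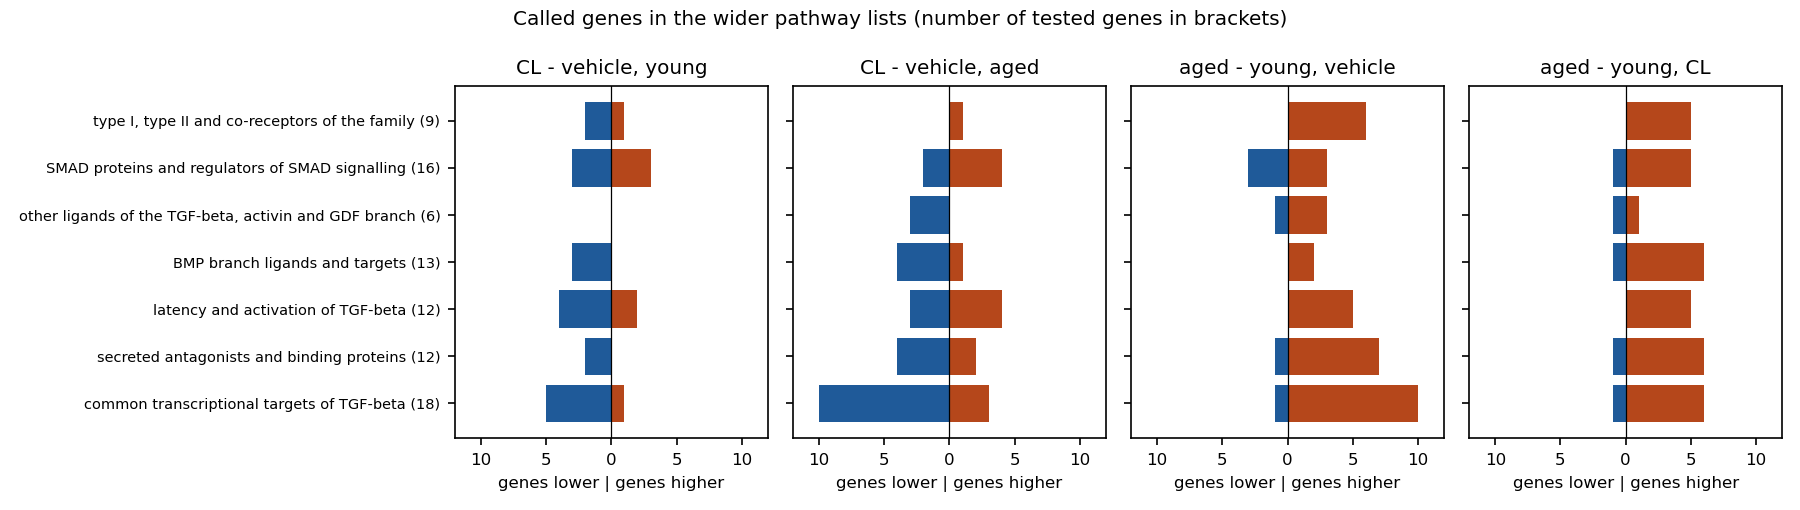
Number of genes called higher (to the right of 0) and lower (to the left) in each of the 7 wider lists, in the 4 pairwise comparisons, with the number of tested genes in brackets. Targets of TGF-beta had 10 genes lower with CL in aged mice and 10 higher with age under vehicle.

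The pattern of each member over the 15 libraries was set against other tested genes with an average log2 CPM of at least 3. Unnamed gene models and antigen receptor segments were skipped. The measure was the root mean square difference of centred log2 CPM, where a smaller value is more alike. Smad7 was closest to Gmip (0.0916), Cd37 (0.107), a leukocyte surface protein, and Bcor (0.109), against its own SD of 0.550. Tgfb1 was closest to Wdr1 (0.0852), Cap1 (0.0998) and Arpc2 (0.104), all regulators of actin, with an SD of 0.248. Tgfbr2 was closest to Arrb2 (0.112), Arap1 (0.113) and Twf2 (0.113), and Tgfbr1 to Cd47 (0.0995), Kctd12 (0.105) and Atp2b1 (0.107). Tgfb3 was closest to Acvrl1 (0.138), a type I receptor of the family with endothelial expression, then Pam (0.150) and Man2b2 (0.163). Tgfb2 was closest to Lpar1 (0.191), Ramp1 (0.205) and Cd209a (0.236), Fst to Gpsm2 (0.192), Agtrap (0.204) and Emp3 (0.209), and Acvr1c to Rora (0.173), Lrrc58 (0.200) and Mbnl2 (0.214). Inhbb had no gene as close for its spread: the nearest were Cdc42ep1 (0.287), Spaca6 (0.293) and C1qtnf9 (0.342), against an SD of 0.643. The genes nearest to Fst were only slightly closer for its spread, against an SD of 0.456.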

How the data were processed

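PolyA RNA of inguinal white adipose tissue was sequenced by the submitters. Per the submitters' processing notes, STAR aligned the reads to mm9 and featureCounts (Subread) made the gene counts. Versions, gene annotation and strand setting are not given in the sources used here. The authors deposited whole-number gene counts, 1 table of 24015 genes and 15 libraries. Old_Ctrl replicate 2 was not analysed here. Genes were filtered with filterByExpr by group and scaled by TMM. The 4 group contrasts and the age by CL interaction were fitted by quasi-likelihood in edgeR 4.0.16 (R 4.3.3, 1 mean per group, all 15 libraries). A gene was called when its adjusted p (Benjamini-Hochberg over all tested genes) was under 0.05. SEs were taken from the log2 change and its F statistic. Log2 CPM used a prior count of 2. A gene at 3 counts stood at 0.497 CPM in the shallowest library. Samples were grouped by the labels, and the fit was checked on simulated counts. The members and all lists were chosen with earlier results of these data known. The 10 members were named in every comparison, with up to 6 genes per list and comparison by smallest p, and the 3 genes most alike each member with an average log2 CPM of at least 3. Alternatives, run with limma 3.58.1 and DESeq2 1.42.0 among others, were other scaling factors, tests and filters, pairs of groups alone, the replicate block, marker covariates and left-out libraries. Set tests were not made.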

Additional observations from a re-analysis of the deposited data

Results flagged for a closer look

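In Young_Ctrl, Tgfb3 was 19.9 CPM in library 2, far from the other 3 libraries for its spread. In Old_CL, Acvr1c was 102 CPM in library 3, below the other 3 libraries, and that library is the one of its group rich in skeletal muscle transcripts. These were 2 of 30 gene and group sets of 4 libraries examined, and chance alone marks about 1 in 20.

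The response to CL differed between aged and young mice, as aged minus young log2 change with the edgeR adjusted p, by 1.95 for Inhbb (adjusted p = 0.014), -1.22 for Tgfb2 (adjusted p = 0.043), 0.76 for Acvr1b (adjusted p = 0.0054), 2.15 for Bmp3 (adjusted p = 0.0034) and 1.55 for Fstl3 (adjusted p = 0.010). Among the common targets of TGF-beta it differed by 1.60 for Acta2 (adjusted p = 0.0063), 1.74 for Cyr61 (adjusted p = 0.029), 0.67 for Tagln (adjusted p = 0.029) and -1.70 for Col1a2 (adjusted p = 0.039). Each of these differences was tested as an interaction, and those of Tgfb2, Cyr61, Tagln and Col1a2 lost their call without several single libraries.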

How the results depend on the processing

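Depth, 3 or 4 libraries per group and the uneven content of muscle, lymphoid and adipocyte transcripts limit these results. Of 24 called results of the members, 5 kept direction and call under all alternatives, 19 lost the call under at least 1, and none reversed. Of 21 results not called, 10 were the same throughout, 5 passed under at least 1 alternative and 6 changed sign under at least 1, and the causes were not tested.

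All 15288 genes gave 6706 calls for CL in young mice, 6916 for CL in aged mice, 4162 for age under vehicle, 6108 for age under CL and 1083 for the interaction. Without the 5 muscle-rich libraries, which leaves 1 Young_CL library assumed to vary like the others, the calls were 2974 for CL in young mice, 1869 for age under CL and 203 for the interaction, and the members called were 3, 2 and 0. With the mean level of B cell and lymph node markers as a covariate the calls were 1712, 4554, 23 and 2072 in the 4 pairwise comparisons in that order, and the members called were 1, 4, 0 and 1. With Old_CL 1, 2 and 4 summed, 3817 genes were called for age under CL, and 139 genes and 0 members for the interaction. With the 2 groups alone 1877 genes were called for age under vehicle, and DESeq2 called 1871 for the interaction. Interaction calls numbered 1 member with no filter on low counts and 1 with the skeletal muscle score as a covariate.

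With the replicate block, 641 genes and 1 member were called for the interaction. The numbers did not pair the libraries: correlations of deviations over 21 same-number pairs ran from -0.470 to 0.462, 7 were over 0.1, and 3 of 15 samples matched best with their own number. Upper-quartile scaling moved the share of higher calls from 49.6% to 38.7% for CL in young mice.

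With each library left out in turn, genes called ranged from 1738 to 5850 for age under vehicle and from 431 to 2070 for the interaction, where members called ranged from 1 to 3, and members called for CL in young mice ranged from 3 to 6. The ranges of log2 change for results near 0 were -0.16 to 0.16 for Tgfb1 with age under vehicle, -0.059 to 0.041 for Tgfb1 with age under CL and -0.16 to 0.16 for its interaction, -0.10 to 0.18 for Tgfbr1 with age under vehicle, -0.0068 to 0.15 for Tgfbr2 with age under vehicle and -0.25 to 0.13 for Fst with age under CL. Tgfb1 with age under vehicle was 0.11 without the muscle-rich libraries. Tgfb1 with age under CL was 0.0060 with no filter, 0.0016 with the replicate block and 0.051 with Old_CL 1, 2 and 4 summed. Its interaction was -0.26 without the muscle-rich libraries and -0.012 with the muscle covariate. Tgfbr1 with age under vehicle was -0.0096 with upper-quartile factors, and Fst with age under CL was 0.60 without the muscle-rich libraries. With the B cell and lymph node covariate Gdf11 was 0.30 with age under vehicle and 0.12 under CL, and Grem1 was 0.014 under vehicle.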
